A study of Homo sapiens with 3 samples.

Results

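The regulators of G protein signalling (RGS proteins) were followed in MM1S cells, a human line established from multiple myeloma, before and during inhibition of NAMPT. Expression was read on 3 Affymetrix arrays, 1 per group: untreated cells, labelled as 0 h, and cells kept with 10 nM FK866 for 6 h or for 24 h. FK866 blocks NAMPT, the enzyme that salvages nicotinamide for NAD synthesis. All cells grew in the same serum-supplemented medium, and 0 untreated arrays were taken at a treated time, so FK866 and time in culture cannot be told apart. The 10 genes RGS1, RGS2, RGS3, RGS10, RGS12, RGS13, RGS14, RGS16, RGS18 and RGS19 were chosen by family name with the arrays' fold changes already known. Their values are therefore a description, and no test was run on them. They are 10 of 19775 genes that the platform annotation names alone on a probe set, and they have 31 probe sets, of which 16 in 9 genes passed the filter on level (a mean signal of 19.1 or more, as the mean log2 value over the 3 arrays). RGS18 did not pass.

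RGS proteins switch off heterotrimeric G proteins. A receptor loads the G alpha subunit with GTP, which frees it from G beta and gamma to act on effectors such as adenylyl cyclase or phospholipase C beta, and the RGS domain speeds the hydrolysis of that GTP. In B-lineage cells, RGS1 and RGS13 are known for blunting signals from chemokine receptors, and RGS2 for acting on the Gq subunit. RGS1, RGS2, RGS3, RGS13, RGS16 and RGS18 belong to the R4 group of small RGS proteins, RGS10, RGS12 and RGS14 to the R12 group, and RGS19 to the RZ group.

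Signals are linear and in arbitrary units, those below 16 were set to 16 before log2 values were taken, and differences are log2 differences between 2 arrays. With 1 array per group no difference has a replicate check. The only error measure is how far the probe sets for 1 gene disagree, which covers probe error and isoforms and not variation between cultures. The pooled SD of that disagreement on the log2 scale was taken in the comparisons with untreated cells. It was 0.18 at 6 h and 0.20 at 24 h for 425 genes whose mean log2 signal was 10 or more. For 3614 genes between 5 and 8 it was 0.42 at both times, and for 395 genes below 5 it was 0.60 and 0.56. RGS13, with a mean log2 signal of 4.97, falls in the last class. The arrays also differed in overall level, the median measured gene lying at -0.10 at 6 h and -0.13 at 24 h against untreated cells. Over all probe sets other than controls, the median signals were 20.4 (untreated), 17.4 (6 h) and 17.2 (24 h), near the floor. Centring on array medians, an alternative used below, rests on these signals and not on the median measured gene. Plasma cell markers were bright (SDC1, TNFRSF17, JCHAIN and 6 others between 423 and 12686), with CD27 the exception at 22.6 or less. The markers of B cells, T and NK cells, myeloid cells and stroma summed to between 57 and 152 per list and array, against at least 41454 for plasma cells, and 2 of 4, 4 of 6, 2 of 4 and 1 of 5 of them were at or under the floor on all arrays. The B cell genes MS4A1 and PAX5 were among these. A probe set of the stromal collagen gene COL1A1 read 101.5, 53.4 and 19.3, but another read 48.3, 55.9 and 69.2, and their part in the RGS values was not tested.

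RGS1, RGS2 and RGS13 were at least 2-fold lower in both treated arrays, and the other 6 measured RGS genes lay within 2-fold of untreated cells at both times. At 6 h, 3 of 9 measured RGS genes were at least 2-fold lower, where 3.32% of 11883 measured genes were, and 0 were at least 2-fold higher, where 1.44% were. At 24 h the same 3 were at least 2-fold lower, beside 4.17% of all genes, and 0 higher, beside 1.14%. These counts rest on the differences with which the genes were chosen and support nothing beyond the values. Quantile normalization turned the balance over all genes at 6 h from 395 lower and 171 higher to 208 and 279, and at 24 h from 495 and 135 to 264 and 288, and under it and under centring on array medians only RGS13 remained past 2-fold at 6 h. All 3 stayed past 2-fold at 24 h under both. In a bulk culture, fewer cells of a type and less RNA per cell cannot be told apart.

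RGS1, an early-activation gene of lymphocytes that acts on Gi and Gq subunits, had its bright probe set (216834_at) at 7973 before FK866, 3959 at 6 h and 3333 at 24 h. Its other kept probe set (202988_s_at) read 1861, 768.5 and 643. Both were highest in untreated cells and lowest at 24 h, with most of the gap already there at 6 h. At 6 h the bright probe set was 2.01-fold and the other 2.42-fold lower than in untreated cells, and at 24 h 2.39-fold and 2.89-fold. The 6 h value stands at the size used for counting, and became -0.85 on the log2 scale after quantile normalization and -0.78 after centring. The remaining RGS1 probe set (202989_at) lay near the floor, at 21.5 in untreated cells and 1 and 6.1 in the treated arrays, and did not pass the filter. A mean signal within 0.5 of that of RGS1 on the log2 scale was found in 427 genes, RGS1 included. Besides RGS1, 3 of them had a difference at least as low at 6 h and 1 at 24 h. Totals of genes of similar signal given below likewise include the RGS gene itself, and their counts and shares leave it out.

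RGS2, which acts on Gq and also restrains adenylyl cyclase, has 1 probe set (202388_at). It read 3854 without FK866, 1846 after 6 h of it and 1469 after 24 h. The order of the arrays was that of RGS1. The fold against untreated cells was 2.09 at 6 h and 2.62 at 24 h, both downward. After quantile normalization these differences were -0.93 and -1.21 on the log2 scale, against -1.06 and -1.39 as deposited. Of 825 genes of similar signal, 3 were at least as low as RGS2 at 6 h and 3 at 24 h. Among bright genes (a mean log2 signal of 8 or higher), the 3 whose differences at 6 h and 24 h lay closest to those of RGS2, of 5529 compared, were YPEL5 (-1.09 and -1.35), RBM33 (-0.99 and -1.37) and HEXIM1 (-1.01 and -1.45), with Euclidean distances of 0.05, 0.08 and 0.08 over 3 arrays that share the untreated one.

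RGS13, a very small RGS protein of germinal centre B cells and mast cells, read 74.2 before treatment, 24.0 at 6 h and 17.4 at 24 h on its only kept probe set (210258_at). It was 3.09-fold and 4.26-fold lower, with the 24 h signal next to the floor of 16. This gene passed the filter through its untreated signal, and its other 2 probe sets were below the floor on all arrays, at 9.3, 4.4 and 5.8 and at 6.1, 0.7 and 0.9. With a floor of 64 the RGS13 difference was -0.21 at both times. That value only sets 74.2 against 64, as both treated signals lie under that floor. With log2(signal + 32) the RGS13 difference was -0.92 at 6 h and -1.10 at 24 h. Among genes of this low signal large differences were commoner: 17 of 1679 were at least as low at 6 h and 6 at 24 h.

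**Figure D1:**
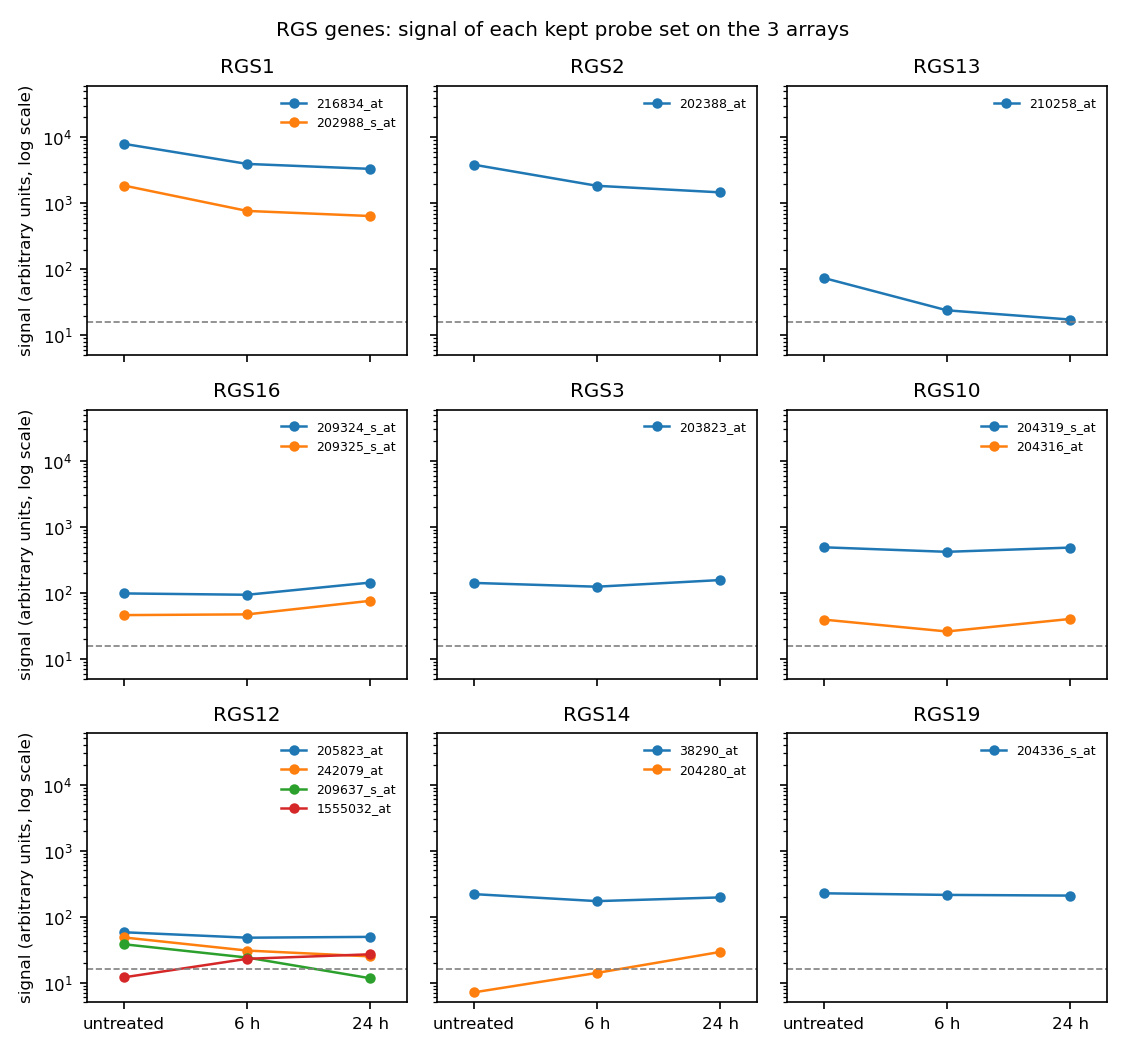
Signal of each kept probe set (arbitrary units, log axis) on the untreated, 6 h and 24 h arrays, 1 panel per RGS gene, 1 line per probe set and 1 array per point, with the floor of 16 dashed. RGS1, RGS2 and RGS13 are lower at 6 h and lowest at 24 h, while RGS16 is highest at 24 h.

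Between the treated arrays the 3 genes were lower still at 24 h than at 6 h, but by less than 2-fold: RGS1 by -0.25, RGS2 by -0.33 and RGS13 by -0.46 on the log2 scale. In this comparison 0 of 9 RGS genes were at least 2-fold lower, where 1.84% of all genes were, and 0 higher, where 1.09% were. The RGS1 and RGS2 steps exceeded the pooled probe set SD of 0.16 for this comparison at log2 signals of 10 or more, but 46 of 427 genes with a signal like that of RGS1, and 80 of 825 with one like that of RGS2, were at least as low. The 2 kept RGS1 probe sets gave -0.25 and -0.26.

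**Figure D2:**
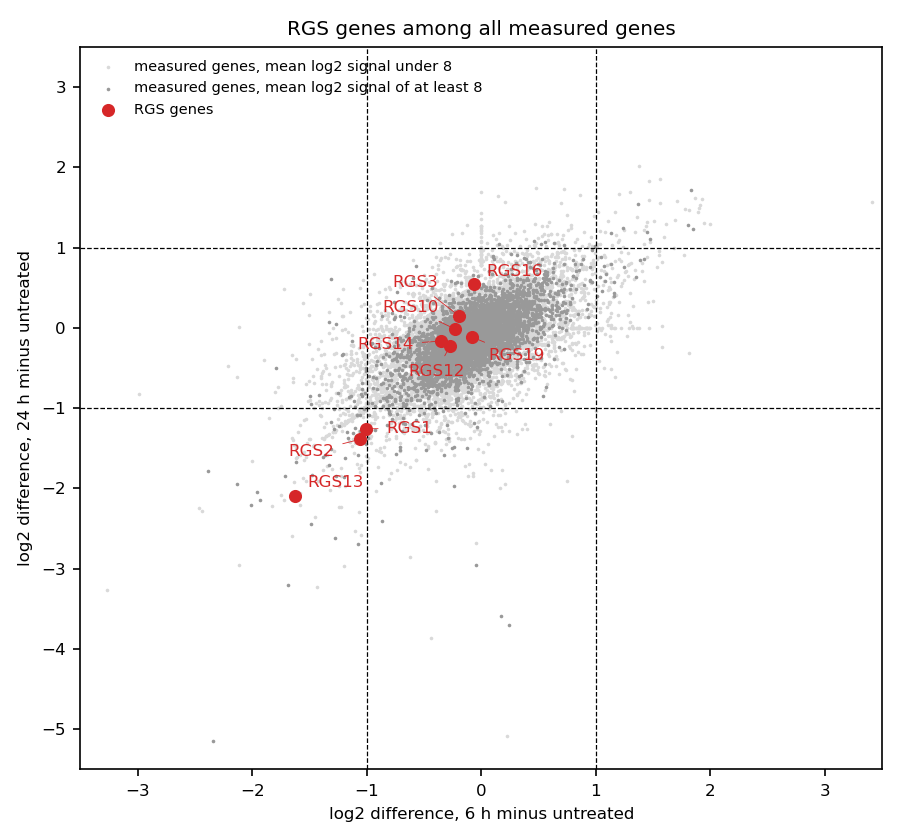
Log2 difference from untreated cells at 6 h (x axis) and 24 h (y axis) for 11883 measured genes, pale grey below and darker grey at or above a mean log2 signal of 8, with the 9 measured RGS genes in red and dashed lines at 2-fold. Both axes share the untreated array; RGS1, RGS2 and RGS13 lie in the lower left and the other 6 RGS genes near the centre.

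RGS1, RGS13 and RGS2 are neighbours. In the RefSeq gene order they follow each other on chromosome 1, after RGS18 and RGS21, with 0 other protein-coding genes from RGS18 to RGS2, whereas RGS16 lies elsewhere on that chromosome. RGS18, best known from platelets, lay under the floor on all arrays (11.1, 12.1 and 12.3), and RGS21 had 0 probe sets named for it alone. Of the 6 nearest protein-coding genes on each side, a window set after the RGS values were seen, 7 of 12 were measured and 0 differed 2-fold at either time. Their median difference was -0.18 at both times, close to that of all genes. UCHL5, a deubiquitinase and the first gene beyond RGS2, read 1277, 1274.5 and 1367 (untreated, 6 h, 24 h). RO60, an RNA-binding autoantigen, differed by -0.22 at 6 h and -0.40 at 24 h, GLRX2, a mitochondrial glutaredoxin, by -0.20 and -0.18, and CDC73, a subunit of the PAF1 complex, by -0.18 and -0.43. On the RGS18 side, PLA2G4A, the cytosolic phospholipase A2, was higher (0.57 and 0.69), ODR4 was at -0.21 and -0.70 and the nuclear pore protein TPR at 0.05 and -0.01.

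**Figure D3:**
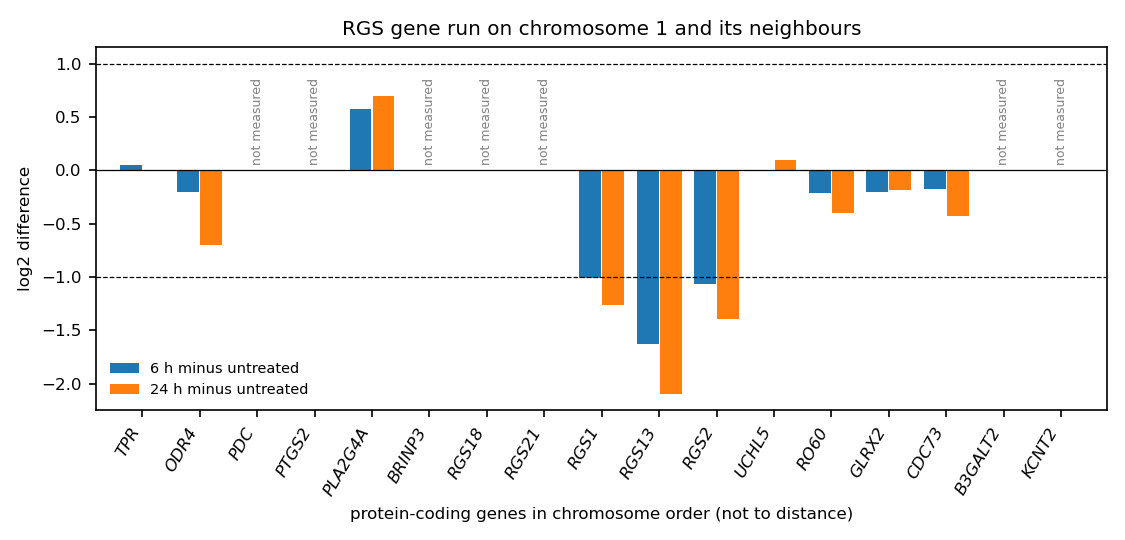
Log2 difference from untreated cells at 6 h (blue) and 24 h (orange) for the RGS genes and the 6 nearest protein-coding genes on each side, in chromosome order and not to distance, with dashed lines at 2-fold and 1 array per group. RGS1, RGS13 and RGS2 are the 3 pairs of bars past the lower line.

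The 250 bases upstream of the annotated start of these 3 genes, and of RGS16, which differed the other way at 24 h, are shown to let their promoters be compared. They come from RefSeq on GRCh38.p14, where all 10 genes matched by symbol. RGS1 (chr1:192575523-192575772), RGS13 (chr1:192635897-192636146) and RGS2 (chr1:192808789-192809038) are on the plus strand and RGS16 (chr1:182604390-182604639) on the minus strand. Capitals mark TGACG, the core of the cAMP response element bound by CREB family factors, which reads CGTCA on the other strand.
RGS1: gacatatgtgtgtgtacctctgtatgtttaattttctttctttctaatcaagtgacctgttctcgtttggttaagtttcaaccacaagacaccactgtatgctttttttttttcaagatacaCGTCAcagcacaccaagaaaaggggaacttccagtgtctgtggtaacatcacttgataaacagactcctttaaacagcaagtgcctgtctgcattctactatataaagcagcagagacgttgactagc
RGS13: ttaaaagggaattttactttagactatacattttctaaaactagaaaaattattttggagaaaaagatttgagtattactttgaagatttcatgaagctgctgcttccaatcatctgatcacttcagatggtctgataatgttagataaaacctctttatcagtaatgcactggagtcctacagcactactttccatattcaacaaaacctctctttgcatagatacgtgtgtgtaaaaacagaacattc
RGS2: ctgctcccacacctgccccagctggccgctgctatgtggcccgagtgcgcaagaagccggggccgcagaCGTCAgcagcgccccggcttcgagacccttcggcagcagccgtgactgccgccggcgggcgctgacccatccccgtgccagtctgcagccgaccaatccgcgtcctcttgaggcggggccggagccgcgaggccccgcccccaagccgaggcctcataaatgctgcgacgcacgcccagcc
RGS16: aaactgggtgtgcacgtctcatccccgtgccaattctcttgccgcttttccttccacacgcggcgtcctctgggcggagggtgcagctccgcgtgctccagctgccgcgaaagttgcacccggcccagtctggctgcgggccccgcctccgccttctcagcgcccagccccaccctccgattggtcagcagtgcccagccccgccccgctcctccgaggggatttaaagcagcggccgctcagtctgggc

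The 4 windows differed in base composition. GC made up 39.2% in RGS1, 32% in RGS13, 72.8% in RGS2 and 68.4% in RGS16, against a median of 58% over 35116 promoter windows of the same length. RGS1 and RGS2 each held 1 match to TGACG, at 128 to 124 and 181 to 177 bases before the start, and both read CGTCA on the strand shown. RGS13 and RGS16 held 0. At least 1 TGACG on either strand was present in 21.2% of all windows, and in 4 of 20 windows of the 10 RGS genes, the others being 1 of 5 windows of RGS12 and 1 of 5 of RGS3. The full palindrome TGACGTCA (1.65% of all windows), the AP-1 motif TGANTCA (6.57%) and the FOXO motif GTAAACA (2.98%) had 0 matches in the 20 windows. The NF-kB pattern searched, GGG and TTCC with any 3 bases between them (5.67% of all windows), matched in RGS1, at 106 to 97 bases before the start, as well as in windows of RGS12 and RGS19. The GC box GGGCGG (42.6%) matched in RGS2, RGS3, RGS10, RGS12, RGS16 and RGS19, and its matches can lie inside other GC-rich runs. A match is a description of the letters and not a bound site, and all searches covered both strands.

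Of the 9 measured members, RGS16 had the highest difference at 24 h. RGS16, which acts on Gi and Gq, read 98.4 without FK866, 93.9 at 6 h and 143.7 at 24 h on its brighter probe set (209324_s_at), and 46.2, 47.4 and 76.1 on the other (209325_s_at). Both were level between untreated cells and 6 h and highest at 24 h. Against untreated cells at 24 h they were 1.46-fold and 1.65-fold higher, under 2-fold, and 5.35% of 1532 genes of similar signal were at least as high. The difference between the treated arrays was 0.61 on the log2 scale by the brighter probe set and 0.68 by the other, against a pooled probe set SD of 0.38 at this signal. The remaining RGS16 probe set (242212_at) was below the floor on all arrays.

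RGS3, a larger R4 protein that acts on Gi and Gq, read 141.9 in the untreated, 124.4 in the 6 h and 156.9 in the 24 h array (203823_at). Its differences of -0.19 and 0.14 were within the probe set SD, and its other 2 probe sets were below the floor on all arrays. RGS19, of the RZ group and known for acting on Gi, read 224.9, 212.7 and 207.6 on its only probe set (204336_s_at), with differences of -0.08 and -0.12 that matched those of the median gene. The lowest and highest arrays lay within 1.26-fold of each other for RGS3 and within 1.08-fold for RGS19.

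Among the R12 proteins, which act on Gi subunits, RGS10 was close to its untreated level. Its brighter probe set (204319_s_at) read 491.9, 420.0 and 486.7, and the other kept one (204316_at) 39.5, 26.1 and 40.4. As deposited, both were lowest at 6 h, by -0.23 and -0.60. The brighter one stood at 0.0015 at 6 h after centring on array medians and at -0.15 after quantile normalization. RGS14, which joins its RGS domain to Ras-binding domains and a GoLoco motif for inactive Gi, read 218.6, 171.2 and 194.9 on its bright probe set (38290_at), again lowest at 6 h (-0.35) and at -0.17 at 24 h. After centring on array medians the bright RGS14 probe set stood at -0.12 at 6 h. A dim RGS14 probe set (204280_at) lay under the floor in untreated cells and at 6 h. It passed the filter only through the 24 h array, where it read 29.1.

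RGS12, built like RGS14 with an added PDZ domain, had 10 probe sets, of which 4 passed the filter, and these disagreed. The brightest (205823_at) read 57.8, 47.8 and 49.2, a difference of -0.27 at 6 h and -0.23 at 24 h. Another (242079_at) differed more, at 48.2, 30.5 and 24.9, or -0.66 and -0.95. The probe set 209637_s_at read 38.0, 23.9 and 11.6, at least 2.38-fold lower at 24 h because the last value is under the floor, whereas 1555032_at ran the other way, at 12.0, 22.9 and 26.8. With a floor of 64 all 4 showed a difference of 0, as they had to with no signal above 57.8. Because the kept probe sets disagreed, no direction is given for RGS12. The remaining 6 RGS12 probe sets read 21.3 or less on each array.

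The rest of the G protein machinery was read from 8 lists of 116 genes, of which 66 were measured. At 6 h 1 of 66 was lower by 2-fold or more and 1 higher, beside 3.32% and 1.44% of all measured genes, and at 24 h 3 were lower and 6 higher, beside 4.17% and 1.14%. Their median differences were -0.17 and -0.07, and that of the 9 measured RGS members was -0.27 and -0.17. Between the treated arrays 1 was lower and 7 higher at 24 h, beside 1.84% and 1.09%. All 6 that were higher at 24 h had untreated signals of 29.9 or less. The probe sets used for RAP1GAP, PLCB4 and ARHGEF11 passed the filter only through the 24 h array, where they were high. These counts therefore support nothing further.

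Among 17 other genes with an RGS domain, 9 were measured. RGS5, best known from pericytes, read 29.2, 58.1 and 46.9 (0.99 and 0.68), but its 3 kept probe sets ranged from 0.02 to 0.99 at 6 h. RGS17, an RZ protein, was under the floor in untreated cells, at 12.7, and passed the filter only through a 24 h signal of 28.9. RGS6, of the R7 group, passed the filter only through a 6 h signal of 29.1. AXIN2, a scaffold and feedback target of Wnt signalling, was 2.00-fold lower at 24 h (219.6 to 109.7), the only one of the 9 past 2-fold, with its other kept probe set at -1.26 at 6 h and -0.72 at 24 h, and AXIN1 differed by -0.60 at 6 h and 0.02 at 24 h. The sorting nexin SNX14 was near untreated level (-0.08 and -0.04). AKAP10, a kinase anchor named after its values were seen, differed by 0.41 and -0.04 by the probe set used, while the lowest of 4 stood at -2.13 at 24 h. RGS4, RGS7, RGS8, RGS9, RGS11, RGS20 and RGS22 had 0 kept probe sets. Among genes named RGS, only RGS1, RGS2 and RGS10 reached a mean log2 signal of 8.

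The RhoGEFs with an RGS-like domain, which link G12 and G13 subunits to RhoA, were measured in 3 of 3 cases. By the probe sets used, ARHGEF12 (952, 761 and 903) and ARHGEF1 (71.8, 57.2 and 67.5) were lowest at 6 h, by -0.32 and -0.33. At 24 h these probe sets lay within 0.10 of untreated cells. The other kept ARHGEF1 probe set stood at 0.15 at 6 h and -0.17 at 24 h. For ARHGEF12, the lowest of 4 stood at -0.85 at 24 h. ARHGEF11 was dim (17.4, 8.7 and 42.3) and its 2 probe sets disagreed, at 1.29 and -0.12 at 6 h and at 0 and 1.28 at 24 h. Of 8 partners and GoLoco proteins 6 were measured, with a median of 0.53 at 24 h that lies between GPSM3 and the dim PCP2. GNB5, the G beta subunit that holds R7 proteins, differed by -0.00 and -0.22, and GPSM2, which orients the mitotic spindle, by 0.59 and -0.00. GPSM3 was at -0.17 and 0.35. PCP2 (0.71), GPSM1 (0.87) and RAP1GAP, at least 2.38-fold higher at 24 h, had untreated signals of 16.7 or less. PCP2, GPSM1 and RAP1GAP passed the filter only through the 24 h array, where they were high, so that median supports nothing further.

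Of 13 G alpha subunits 10 were measured, with medians of -0.11 at 6 h and -0.27 at 24 h. GNA12, of the G12 class, read 797, 619 and 324 by its brighter probe set and was 2.46-fold lower at 24 h, but its other probe set differed by -0.25. GNA13 read 5916, 4233 and 4267 (-0.48 and -0.47, with another probe set at -1.02 at 6 h), and GNA11, of the Gq class, was at -0.39 and -0.93 from a signal of 50.4. GNAQ itself differed by -0.05 and 0.18. GNAZ, a Gi-class subunit on which RZ proteins act, was 2.77-fold and 3.57-fold higher from a signal of 18.6 near the floor, and GNAI1 differed by 0.47 and 0.62. Of 14 G beta and gamma subunits 8 were measured and 0 differed 2-fold. GNG2 (-0.29 and -0.87) and GNG12 (-0.54 and -0.82) were the lowest. GNB1 (-0.03 and -0.02), GNB2 (-0.19 and 0.04) and GNG7 (-0.16 and 0.11) lay near untreated level by the probe sets used. Another GNG7 probe set stood at -0.64 at 6 h and 0.21 at 24 h. GNB4 stood at 0.21 and -0.12 by its brightest probe set but at -1.28 at 6 h by another, and a further GNG2 probe set stood at -1.01 at both times.

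Of 7 receptor kinases and arrestins, which shut receptors off upstream of the G protein, 6 were measured, with medians of -0.44 at 6 h and -0.21 at 24 h. GRK6 read 252.6, 160.8 and 226.7, and at 6 h its 4 probe sets ranged from -0.90 to -0.44. GRK3 (-0.79 and -0.71) and GRK5 (-0.60 and -0.52) each had another probe set at 0.17 or above, and GRK2 differed by -0.29 and -0.25, with another probe set at -1.25 at 24 h. GRK4 read 20, 23.6 and 48, or 2.4-fold higher at 24 h, and ARRB1 was dim (0.74 and 0.10). Of 14 effectors 8 were measured. The cyclases ADCY3 (-0.26 and 0.20), ADCY6 (0.08 and -0.25) and ADCY7 (0.40 and 0.31, with another probe set at -0.66 and -0.71) lay within 2-fold, as did PLCB1 (-0.18 and 0.35) and PLCB2 (-0.21 and -0.41). PLCB3 was 2.03-fold higher at 24 h from 29.9. PLCB4 was at least 2.27-fold higher at 24 h from under the floor, but its other kept probe set differed by 0.21.

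Among 40 receptors of lymphoid cells 16 were measured, with medians of -0.40 at 6 h and -0.29 at 24 h and 14 of 16 below 0 at each time. Of all 11883 genes 7510 and 7750 were below 0, and 14 and 11 of the 16 receptors lay below the median gene. CXCR4, the chemokine receptor that holds plasma cells in bone marrow, read 3031, 2413 and 1013, and was 2.99-fold lower at 24 h, where its 3 probe sets ranged from -1.58 to -1.45. At 6 h the same 3 lay between -0.35 and -0.28, so CXCR4 was lower late, whereas RGS1 and RGS2 had most of their difference at 6 h. The test of that difference in timing cannot be run with 1 array per group. GPRC5D, a plasma cell surface receptor, differed by -0.43 and -0.80, and P2RY10 by 0.15 and -0.38 (down to -1.29 at 24 h by another probe set), while PTGER4 read 205.6, 206.0 and 174.3. PTAFR was at least 3.06-fold lower at 6 h (49.0 to 14.9) by 1 probe set and at -0.40 by another, and LPAR1 (31.4, 8.1 and 19.3), S1PR3 (30.8, 13.6 and 34.5) and PTGIR (30.7, 6.2 and 48.9) were as dim. These 4 receptors were lowest at 6 h, with signals under the floor.

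**Figure D4:**
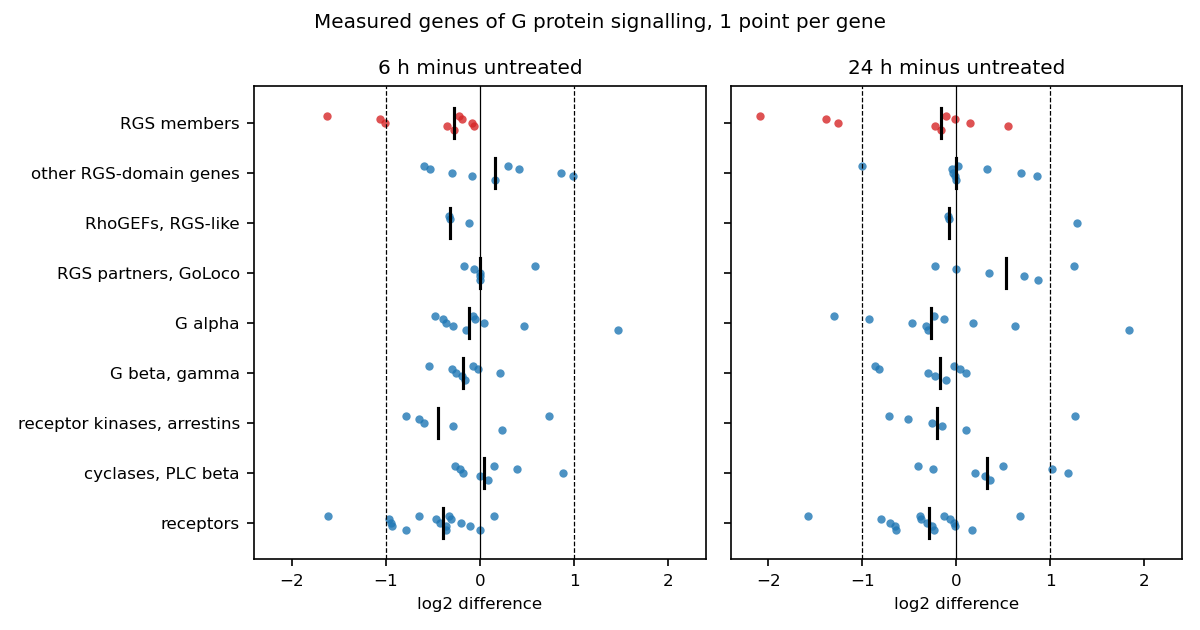
Log2 difference from untreated cells at 6 h (left) and 24 h (right) for each measured gene of the RGS members (red) and of 8 other lists of G protein signalling (blue), with the list median as a black bar and dashed lines at 2-fold, from 1 array per group. At both times the 3 lowest RGS members lie past the lower line, and most other genes lie between the lines.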

How the data were processed

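Expression was measured on 3 arrays, 1 each for untreated, 6 h and 24 h cells. The deposited table gives 1 linear intensity per probe set and array for 54675 probe sets. The summary method, background correction and scaling between arrays are not given in the sources used here. GEO's platform annotation, dated 2016, names exactly 1 gene for 41097 probe sets, the only ones used here, and 41043 of them matched RefSeq by gene identifier. Intensities below 16 were set to 16 and log2 values taken. Probe sets whose mean log2 value reached the overall median, 62 controls left out, were kept. Each gene takes its value from the kept one with the highest mean. Genes are counted at 2-fold, with no test, since each group has 1 array. Folds against floored values are lower bounds.

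The members, lists and alternatives were chosen with earlier results of these data known. Text names every member, the 2 highest and 2 lowest measured genes of each list in each comparison, and list genes past 2-fold. Alternatives covered scaling, floor, filter, probe set choice and size. The counting was tested on simulated data with large changes in bright genes and little noise. That test cannot speak to differences near 2-fold or to dim genes. Promoter windows came from RefSeq GRCh38.p14, without the bases after the start. Python 3.11.15, numpy 2.4.6, pandas 2.3.3 and matplotlib 3.10.9 were used.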

Additional observations from a re-analysis of the deposited data

Results flagged for a closer look

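RGS genes were singled out where the 6 h and 24 h arrays differed from untreated cells in opposite directions, and genes of the other lists where the treated arrays also differed 2-fold. Each direction rests on 1 array, and the difference between times was not tested. RGS3 differed by -0.19 at 6 h and 0.14 at 24 h, and RGS16 by -0.068 and 0.55. The sign of RGS16 at 6 h turned with the scaling, to 0.10 after quantile normalization and 0.16 after centring on array medians. After centring RGS3 stood at 0.040 and 0.39, so its opposite directions were not kept, whereas after quantile normalization it stood at -0.044 and 0.32. ARHGEF11 differed by -0.12 and 1.28, S1PR3 by -0.94 and 0.16, and PTGIR by -0.94 and 0.67, each with 6 h signals under the floor.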

How the results depend on the processing

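No paired analysis was possible because each group has 1 array. The count of RGS genes at least 2-fold lower at 6 h, 3 as reported, was 1 after quantile normalization and 1 after centring on array medians, where RGS1 and RGS2 lay between -0.78 and -0.93. With a size of 1.5-fold, 1 RGS gene (RGS16) was higher at 24 h than at 6 h, against 0 at 2-fold. The other counts of RGS genes stayed within 1.5 times under all 10 alternatives, a bound that lets a count of 3 become 2. RGS13 left the lower counts at 6 h and 24 h with a floor of 64 and with a filter at a mean log2 signal of 8. With log2(signal + 32) it left the 6 h count. Of 459 values of single RGS genes and probe sets under an alternative, 446 stayed on their side of 2-fold, 11 no longer reached it, 2 newly did, and 0 past 2-fold changed sign. Many of these values could not change, so the 446 are no measure of robustness. The filter alternatives leave the value of a probe set as it was, and the floors do so for bright ones. For genes with several kept probe sets, the gene value also mostly repeats that of the brightest. Under a filter at a mean log2 signal of 8 only 3 members (RGS1, RGS2 and RGS10) had a value, and RGS16 and RGS19 had none without probe sets that may cross-hybridise. Over all genes, the counts lower and higher at 24 h, 495 and 135, became 161 and 36 with a floor of 64, 158 and 25 with log2(signal + 32), 86 and 15 under that filter, 264 and 288 after quantile normalization, 240 and 273 after centring, and 1682 and 598 at 1.5-fold. In the same order of settings, the 395 and 171 at 6 h became 115 and 49, 91 and 43, 61 and 23, 208 and 279, 167 and 305, and 1350 and 679. Between the treated arrays, 219 and 130 became 49 and 20 with the floor of 64, 48 and 20 with log2(signal + 32), 27 and 9 under that filter, and 941 and 635 at 1.5-fold. The number of genes counted changed as well, from 11883 to 19775 with the floor of 64 and to 5530 under that filter. As shares, the genes lower at 24 h went from 4.17% to 0.814% and 1.56%. Signal over background limits RGS13 and RGS12, whose values lie near the floor, and 1 array per group limits every value.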
